A study of Homo sapiens with 12 samples.

Results

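Transcripts of 10 genes that carry signals from Toll-like receptors towards NF-kB were followed on expression arrays of lymphoma cell lines treated with a BET bromodomain inhibitor, an IRAK inhibitor or both. The genes, taken by symbol, were the endosomal receptors TLR7 and TLR9, their chaperone UNC93B1, the adaptor MYD88, the kinase family members IRAK1, IRAK2 and IRAK3, the ubiquitin ligase TRAF6, and MAP3K7 and TAB2 of the TAK1 complex. They are 10 of 18239 genes that had a probe set of their own on the array, and together they had 28 such probe sets. Each gene was read from its probe set with the highest mean over the 12 arrays. Of the 10 members, 9 entered the tests. TLR7 did not, because it exceeded the filter level of 4.20 (log2, the 40th percentile of all values) on 1 array, fewer than the 3 required. IRAK4, the kinase that binds MYD88 directly, had no one-gene probe set and was not analysed here.

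Endosomal Toll-like receptors recognise nucleic acids, TLR7 single-stranded RNA and TLR9 unmethylated CpG DNA, and need UNC93B1 to leave the endoplasmic reticulum. An engaged receptor gathers MYD88 and the IRAK kinases into a complex, which activates TRAF6. Ubiquitin chains made by TRAF6 recruit the TAK1 kinase (MAP3K7) through TAB2, and TAK1 then switches on the IKK complex and MAP kinases. In the activated B cell type of diffuse large B cell lymphoma (ABC-DLBCL), mutant MYD88 can assemble this complex on its own and keep NF-kB active, and the series title names such a mutation.

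RNA came from 3 established human ABC-DLBCL lines, OCI-HBL1, OCI-LY3 and OCI-LY10, with 1 array per line and treatment. A group is thus 3 arrays, and the cell line is the replicate. Control cells carry a 24 h label and no further description. CPI203, a BET inhibitor, was given at 500 nM (24 h by label, 18 h by protocol). The IRAK inhibitor, IRAKi, which the title describes as acting on IRAK1 and IRAK4, was given at 50 µM (6 h) with no compound name. Combo cells carry a 24 h label and had both drugs, by protocol CPI203 at 500 nM for 18 h and IRAKi at 50 µM for 6 h. IRAKi alone therefore differs from Control in labelled time as well as in drug, and these cannot be told apart. No source says whether the arrays of a line came from separate experiments, so the p-values speak only to the variation among these 12 arrays, which may be technical.

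Array medians were alike, at 4.64 to 4.73 (log2). The B cell markers MS4A1, CD79A, CD79B, PAX5 and CD22 and all 6 ABC lymphoma markers exceeded the filter level on all 12 arrays. None of 4 T cell and 4 myeloid markers did so on all 12. MPO exceeded it on 10 arrays, CD3E on 3, and CD2, LYZ and CD14 on 1 each. Of the plasma cell markers, PRDM1, XBP1 and JCHAIN exceeded it on all 12 arrays and SDC1 on 1. The mean of the 5 B cell markers was 9.40 to 9.63 in Control and 8.84 to 9.41 with Combo, and that of the 6 ABC lymphoma markers was 10.50 to 11.39 in Control, 9.72 to 10.52 under CPI203 and 9.66 to 9.99 with Combo. The ABC mean was below Control in 3 of 3 lines under both, and the Combo and Control ranges did not overlap. Its largest falls were in BATF, ENTPD1 and IL16. IRF4 in OCI-HBL1 read 11.38 in Control, 11.51 under CPI203 and 11.52 with Combo. PIM1 in OCI-LY3 read 11.25 in Control and 11.40 under CPI203. The other ABC marker values under both were below Control. In OCI-HBL1 the B cell mean was 9.40 in Control and 9.41 with Combo. The part of either mean in the results was not tested. In such bulk RNA, fewer cells of a type and less RNA per cell cannot be told apart. Spiked-in poly-A RNA read above Control by 0.31 ± 0.17 under CPI203, 0.23 ± 0.04 under IRAKi and 0.48 ± 0.26 under Combo (log2, SD, n = 3). Scaling to these spikes lowered every gene by those amounts, which put the median gene at -0.298, -0.230 and -0.487 in that order, so every change below is relative to the bulk of genes.

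Because MYD88, TLR9 and IRAK1 fell together while MAP3K7 rose, the 250 bases before the RefSeq start of each (GRCh38.p14) are shown 5′ to 3′, with matches to the motifs searched in capitals. RefSeq promoters were found for 8 of the 10 members, and UNC93B1 and TLR7 were not matched.
MYD88, chr3:38138411-38138660, plus strand: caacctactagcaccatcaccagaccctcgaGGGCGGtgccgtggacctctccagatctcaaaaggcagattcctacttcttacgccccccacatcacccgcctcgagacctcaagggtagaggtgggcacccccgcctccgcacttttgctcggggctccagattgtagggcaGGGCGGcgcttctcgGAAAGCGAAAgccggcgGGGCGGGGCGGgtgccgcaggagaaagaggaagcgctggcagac
TLR9, chr3:52225646-52225895, minus strand: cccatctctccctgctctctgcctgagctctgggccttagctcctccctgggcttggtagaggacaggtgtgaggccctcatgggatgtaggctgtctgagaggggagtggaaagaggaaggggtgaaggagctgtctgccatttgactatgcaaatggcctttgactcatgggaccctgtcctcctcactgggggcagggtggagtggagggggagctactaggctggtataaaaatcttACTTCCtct
IRAK1, chrX:154019903-154020152, minus strand: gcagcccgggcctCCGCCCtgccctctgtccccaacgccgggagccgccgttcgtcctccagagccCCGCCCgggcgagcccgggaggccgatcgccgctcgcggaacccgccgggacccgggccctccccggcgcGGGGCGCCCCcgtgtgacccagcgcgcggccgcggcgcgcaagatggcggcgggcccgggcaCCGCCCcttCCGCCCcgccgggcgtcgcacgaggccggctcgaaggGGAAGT
MAP3K7, chr6:90587073-90587322, minus strand: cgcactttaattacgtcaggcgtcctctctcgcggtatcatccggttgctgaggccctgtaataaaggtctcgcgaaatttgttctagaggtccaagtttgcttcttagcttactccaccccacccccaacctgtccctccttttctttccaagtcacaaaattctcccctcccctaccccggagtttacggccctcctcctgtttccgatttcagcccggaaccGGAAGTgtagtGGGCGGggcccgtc

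The search covered 6 motifs on both strands. The interferon response core (GAAA, any 2 bases, GAAA) stood once before MYD88, 61 to 52 bases upstream, and 3.07% of 27305 promoters of this length hold it. The GC box GGGCGG stood 4 times before MYD88, where 2 matches share 1 base. It stood 4 times before IRAK1, once before MAP3K7 and not before TLR9, and 42.3% of promoters hold it. The ETS core GGAAGT was found before IRAK1, MAP3K7 and TLR9, and in 19.9% of promoters. An NF-kB consensus that reads alike on both strands lay 114 to 105 bases before IRAK1, and 9.57% of promoters hold one. The E-box CACGTG (6.49% of promoters) was in none of these 4 windows. Nor was the CCAAT box (33.0% of promoters). GC content was 64.4% for MYD88, 82.4% for IRAK1, 56.8% for TLR9 and 54.8% for MAP3K7, against a median of 58.0% over all promoters. A match describes letters, not binding.

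Under CPI203 transcripts of the receptor TLR9, the chaperone, the adaptor and the kinase IRAK1 fell, and that of the TAK1 kinase rose. Of 9 tested members, MYD88, IRAK1, TLR9 and UNC93B1 fell, MAP3K7 rose and 4 did not pass (limma, Benjamini-Hochberg over 13120 genes, adjusted p below 0.05). The background was 13.1% of all tested genes called, 6.92% higher and 6.21% lower. Under Combo the same 5 genes were called in the same directions, against 32.1% of all genes, 15.4% higher and 16.7% lower. The median change over the 9 members was -0.04 under CPI203 and -0.24 under Combo, against 0.0081 and -0.0031 over all tested genes. Under IRAKi limma called 0 of 9, against 0.168% of all genes, 0.114% higher and 0.0534% lower. An unadjusted limma p below 0.05 was found for 1 member, UNC93B1, and for 2018 of 13120 tested genes.

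For CPI203, 0 members were called after dropping OCI-LY3, 1 after OCI-HBL1 and 2 after OCI-LY10. Over all tested genes these fits called 94 higher and 122 lower, 374 and 346, and 135 and 147, in that order. For Combo the numbers of members were 2, 6 and 3, and the 6 were the 5 called genes and TAB2. Over all tested genes the Combo calls were 958 higher and 1114 lower, 1700 and 1720, and 1073 and 1159. A model with no replicate block, that is without the cell line, called 0 members for CPI203 and 1, UNC93B1, for Combo. Over all tested genes it called 2 higher and 2 lower for CPI203, and 255 and 210 for Combo. On the poly-A scale 4 members fell and 0 rose under CPI203, and 5 fell, TRAF6 among them, and 0 rose under Combo. Over all tested genes that scale called 165 higher and 1595 lower under CPI203, against 908 and 815 without it. Under Combo it called 513 and 5644, against 2023 and 2191.

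**Figure D1:**
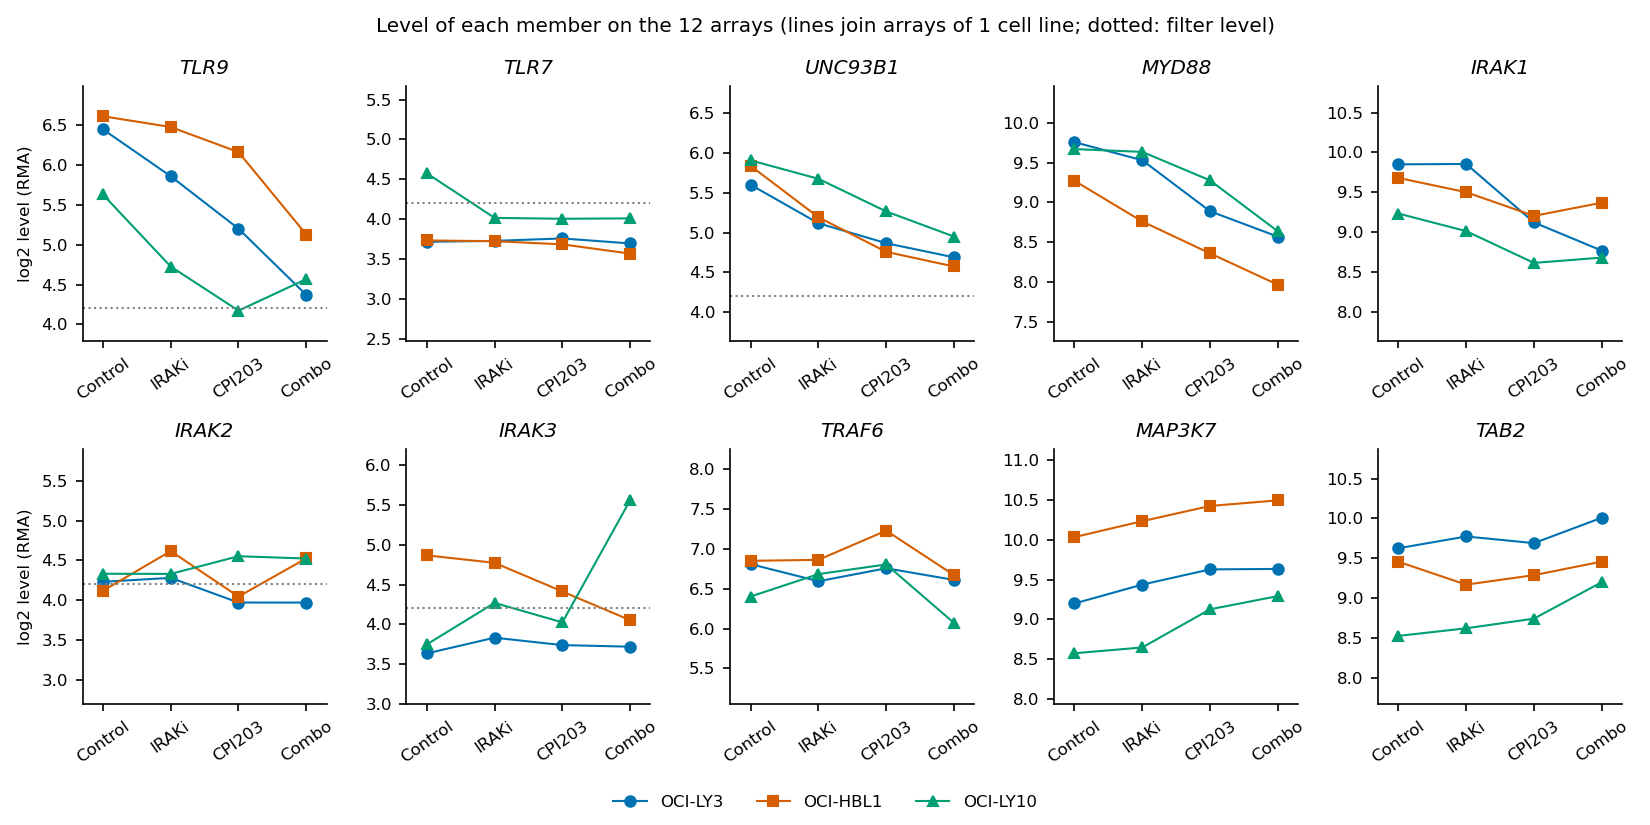
Log2 level (vertical axis, 1 unit is a doubling) of each of the 10 genes on the 12 arrays, by treatment (horizontal axis). Symbols and joining lines mark the cell lines, and the dotted line is the filter level of 4.20. MYD88 and UNC93B1 were ordered Control, IRAKi, CPI203, Combo from high to low in all 3 lines, and MAP3K7 from low to high.

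Levels below are log2 and, where 3 are listed, stand for OCI-HBL1, OCI-LY3 and OCI-LY10, and changes are given ± SE with n = 3 lines. TLR9, the receptor for CpG DNA, fell under CPI203 and Combo. It read 6.61, 6.45 and 5.63 in Control and 6.16, 5.20 and 4.17 under CPI203. Under IRAKi it read 6.48, 5.86 and 4.73, and under Combo 5.13, 4.37 and 4.57. All Combo levels lay below all Control levels, whereas CPI203 and Control overlapped. The change was -1.05 ± 0.27 under CPI203 (limma adjusted p = 0.032) and -1.54 ± 0.27 under Combo (adjusted p = 0.0022), a level 2.91-fold lower and lower in 3 of 3 lines. Under IRAKi the value was -0.54 ± 0.27, lower in 3 of 3 lines and not past the test (adjusted p = 0.38). The CPI203 call ended on dropping OCI-HBL1, OCI-LY3 or OCI-LY10 (adjusted p = 0.066, 0.20 and 0.092 in turn), and the Combo call on dropping OCI-LY3 (adjusted p = 0.054). The OCI-LY10 CPI203 array lay below the filter level, where changes may be understated.

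TLR7, the receptor for single-stranded RNA, stayed near the bottom of the scale. Over the 12 arrays it read 3.57 to 4.57, and the highest value was the OCI-LY10 Control. In OCI-LY10 it read 4.57 in Control and 4.00, 4.01 and 4.01 under CPI203, IRAKi and Combo, while the other lines stayed between 3.57 and 3.76. The second TLR7 probe set differed in OCI-LY10, with 4.19 in Control, 3.73 under CPI203, 4.76 under IRAKi and 3.84 under Combo.

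UNC93B1, the chaperone that delivers TLR7 and TLR9 to endosomes, fell under CPI203 and Combo. It read 5.84, 5.60 and 5.91 in Control and 4.76, 4.87 and 5.27 under CPI203. Under IRAKi it read 5.19, 5.12 and 5.68, and under Combo 4.57, 4.69 and 4.95. Neither the CPI203 nor the Combo levels overlapped with Control. The change was -0.82 ± 0.12 under CPI203 (limma adjusted p = 0.0041) and -1.04 ± 0.12 under Combo (adjusted p = 0.00029), or 2.06-fold lower. Under IRAKi it was -0.45 ± 0.12, lower in 3 of 3 lines and not past the test (adjusted p = 0.14). The CPI203 call ended on dropping OCI-LY3 (adjusted p = 0.062), and the Combo call held with any 1 line dropped. The genome carries 7 pseudogene copies of UNC93B1, and whether they share its probes was not tested.

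MYD88, the adaptor at the centre of the complex, stood in the same treatment order in each line. It read 9.27, 9.76 and 9.67 in Control and 8.76, 9.53 and 9.63 under IRAKi. Under CPI203 it read 8.36, 8.89 and 9.28, and under Combo 7.97, 8.57 and 8.64. The Combo levels lay below all Control and all IRAKi levels, while CPI203 and Control overlapped through the OCI-LY10 CPI203 array. The change was -0.72 ± 0.13 under CPI203 (limma adjusted p = 0.0080) and -1.17 ± 0.13 under Combo (adjusted p = 0.00024), a level 2.26-fold lower. Under IRAKi it was -0.26 ± 0.13, lower in 3 of 3 lines and not past the test (adjusted p = 0.38). The CPI203 changes were -0.91 in OCI-HBL1, -0.87 in OCI-LY3 and -0.39 in OCI-LY10. That call ended on dropping OCI-HBL1 or OCI-LY3 (adjusted p = 0.074 and 0.12 in turn), and the Combo call held with any 1 line dropped. With no replicate block the Combo value had an adjusted p of 0.077.

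The order Control, IRAKi, CPI203, Combo from high to low, noticed after the values were seen, held in all 3 lines for MYD88, UNC93B1 and 220 of 13120 tested genes in all, or 1.68%. Of the other MYD88 probe sets, 3 were above the filter level, and all 3 were called lower under CPI203 (-0.95 to -0.73) and Combo (-1.52 to -1.15). Their IRAKi values ran from -0.70 to -0.36, further from 0 than that of the probe set used, and none was called.

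**Figure D2:**
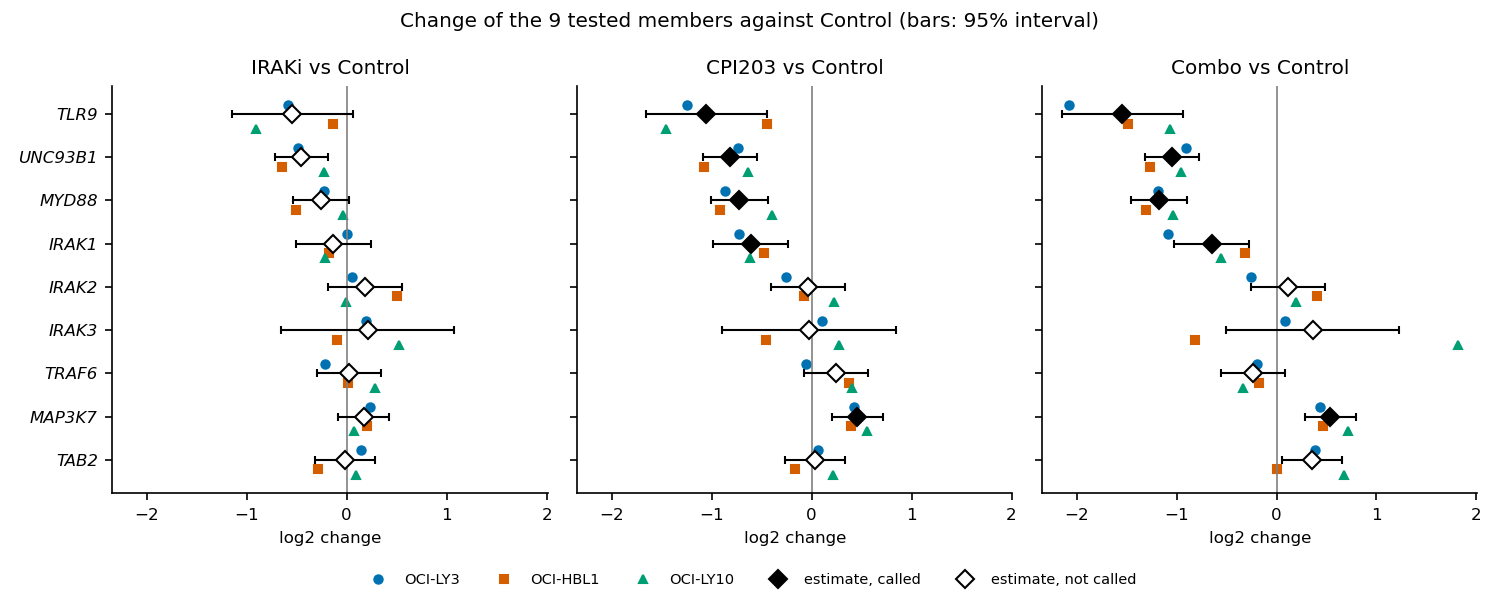
Log2 change against Control (horizontal axis) of the 9 tested genes under IRAKi, CPI203 and Combo. Small symbols are the 3 cell lines, and diamonds the limma estimate with its 95% interval, filled where the gene was called. MYD88, IRAK1, TLR9 and UNC93B1 lie left of 0 and MAP3K7 right of 0 under CPI203 and Combo, and IRAK3 under Combo is spread from -0.81 in OCI-HBL1 to 1.81 in OCI-LY10.

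IRAK1, the kinase that passes the signal from MYD88 to TRAF6, fell under CPI203 and under Combo. It read 9.68, 9.85 and 9.23 in Control and 9.20, 9.12 and 8.61 under CPI203. Under IRAKi it read 9.50, 9.86 and 9.01, and under Combo 9.37, 8.77 and 8.68. CPI203 and Control levels did not overlap, by a narrow margin, and Combo and Control levels did. The change was -0.61 ± 0.17 under CPI203 (limma adjusted p = 0.042) and -0.65 ± 0.17 under Combo (adjusted p = 0.015), lower in 3 of 3 lines in each. Combo against CPI203 gave -0.04, with a 95% interval of -0.42 to 0.33. Under IRAKi the value was -0.13 ± 0.17 (adjusted p = 0.77). The CPI203 call ended on dropping OCI-HBL1, OCI-LY3 or OCI-LY10 (adjusted p = 0.11, 0.12 and 0.22 in turn) and without the OCI-LY10 IRAKi array (adjusted p = 0.053). The Combo call ended on dropping OCI-LY3 or OCI-LY10 (adjusted p = 0.094 and 0.089 in turn).

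IRAK2, a family member that sustains the later signal, lay close to the filter level, from 3.97 to 4.62 over the 12 arrays. Its values were -0.04 ± 0.17 under CPI203, 0.18 ± 0.17 under IRAKi and 0.11 ± 0.17 under Combo, and none passed (limma adjusted p = 0.92, 0.66 and 0.65). The 95% interval under Combo was -0.26 to 0.49. IRAK3, also called IRAK-M, is an inhibitory member best known from myeloid cells, and its values differed from line to line. In OCI-HBL1 it read 4.87 in Control, 4.77 under IRAKi, 4.41 under CPI203 and 4.05 under Combo. In OCI-LY10 it read 3.75, 4.27, 4.03 and 5.56 in that order, and in OCI-LY3 it stayed between 3.64 and 3.83. Over the 3 lines the Combo value was 0.36 ± 0.39 and did not pass (limma adjusted p = 0.53).

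The OCI-LY10 Combo array was the highest of the 12 for the other 3 IRAK3 probe sets too, at 4.20, 4.03 and 3.93. All 3 lay below the filter level on each array, and the last was close to the 3.92 of the OCI-LY10 CPI203 array. The second IRAK2 probe set read 4.78 there and 3.67 to 4.08 on the rest. The mean of the 4 myeloid markers was 4.45 on that array and 3.72 to 4.03 elsewhere. LYZ read 4.81 and CD14 4.37 there, above the filter level on no other array, while CSF1R read 3.99 and MPO 4.62. Non-specific control probe sets averaged 3.79 on this array and 3.64 to 4.00 on the others. The part of these values in the IRAK2 and IRAK3 readings was not tested.

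TRAF6, the ubiquitin ligase downstream of the IRAK kinases, was not called in any treatment comparison. It read 6.85, 6.81 and 6.40 in Control and 7.23, 6.76 and 6.81 under CPI203. Under IRAKi it read 6.86, 6.59 and 6.68, and under Combo 6.67, 6.61 and 6.07. The Combo levels lay below all CPI203 levels, with a value of -0.48 ± 0.14 that did not pass (limma adjusted p = 0.089). Against Control it was 0.24 ± 0.14 under CPI203 (adjusted p = 0.30) and -0.24 ± 0.14 under Combo (adjusted p = 0.24).

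MAP3K7, which encodes the kinase TAK1, rose under CPI203 and Combo. It read 10.03, 9.20 and 8.58 in Control and 10.23, 9.44 and 8.65 under IRAKi. Under CPI203 it read 10.43, 9.63 and 9.13, and under Combo 10.50, 9.63 and 9.29. The treatment groups overlapped. Each line alone had the order Combo, CPI203, IRAKi, Control from high to low, as 241 of 13120 tested genes did, or 1.84%. The change was 0.46 ± 0.11 under CPI203 (limma adjusted p = 0.029) and 0.54 ± 0.11 under Combo (adjusted p = 0.0058), higher in 3 of 3 lines in each. Under IRAKi it was 0.17 ± 0.11 (adjusted p = 0.53). On the poly-A scale the values were 0.15 (adjusted p = 0.62) and 0.05 (adjusted p = 0.83), neither of them called. The CPI203 call ended on dropping OCI-HBL1, OCI-LY3 or OCI-LY10 (adjusted p = 0.13, 0.17 and 0.16 in turn), and the Combo call on dropping OCI-LY3 or OCI-LY10 (adjusted p = 0.052 and 0.067 in turn).

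Of the other 6 MAP3K7 probe sets, 4 were called higher under CPI203 and 6 under Combo, with Combo changes of 0.45 to 0.99. TAB2, the adaptor that links TAK1 to ubiquitin chains, did not pass in any treatment comparison. It read 9.46, 9.62 and 8.52 in Control and 9.17, 9.77 and 8.62 under IRAKi. Under CPI203 it read 9.29, 9.69 and 8.74, and under Combo 9.46, 10.01 and 9.20. Control and Combo overlapped, and the value under Combo was 0.35 ± 0.13 (limma adjusted p = 0.072), with 0.0019 in OCI-HBL1, 0.38 in OCI-LY3 and 0.67 in OCI-LY10. It was called on dropping OCI-HBL1, with trend and robust estimation and under the stricter filter. Its other 3 probe sets gave Combo values of -0.21 to 0.30, and none was called.

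**Figure D3:**
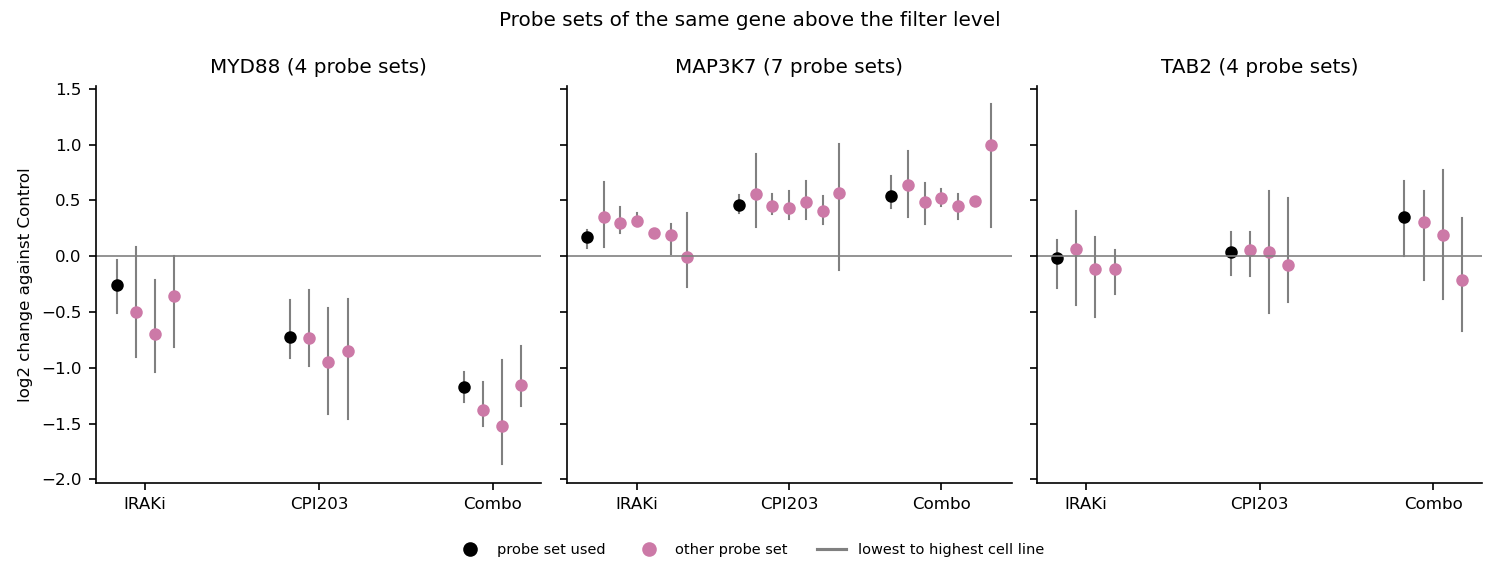
Mean log2 change against Control (vertical axis) of each probe set above the filter level on at least 3 arrays, for MYD88, MAP3K7 and TAB2, by treatment. Points are means over the 3 cell lines, black for the probe set used, and bars run from the lowest to the highest line. All 4 MYD88 probe sets lie below 0 and all 7 MAP3K7 probe sets above 0 under CPI203 and Combo, while the 4 TAB2 probe sets fall on both sides of 0 under Combo.

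Adding the second drug was compared directly. For IRAKi on top of CPI203 (Combo against CPI203), 3 of 9 members and 2723 of 13120 tested genes had an unadjusted limma p below 0.05. After adjustment limma called 0 of 9 members, against 4.66% of all genes, 1.96% higher and 2.71% lower. MYD88 came nearest, at -0.45 ± 0.13 (limma adjusted p = 0.077), with -0.39 in OCI-HBL1, -0.32 in OCI-LY3 and -0.64 in OCI-LY10. It was called with trend and robust estimation and under the stricter filter. Combo and IRAKi arrays differ in labelled time (24 h and 6 h) as well as in CPI203, and these cannot be told apart. In that comparison (Combo against IRAKi) 6 of 9 members and 4293 of 13120 tested genes had an unadjusted limma p below 0.05. After adjustment MYD88, TLR9 and UNC93B1 fell and 0 rose, against 18.7% of all genes, 8.21% higher and 10.5% lower. Nearest to a call were MAP3K7 at 0.37 ± 0.11 (limma adjusted p = 0.0502) and IRAK1 at -0.52 ± 0.17 (adjusted p = 0.058). MYD88 changed by -0.92 ± 0.13 (limma adjusted p = 0.0019) and UNC93B1 by -0.59 ± 0.12 (adjusted p = 0.0092). TLR9 changed by -0.999 ± 0.27 (limma adjusted p = 0.030). The TLR9 call ended on dropping OCI-HBL1 or OCI-LY3 (adjusted p = 0.15 and 0.25 in turn), and that of UNC93B1 on dropping OCI-LY3 or OCI-LY10 (adjusted p = 0.074 and 0.10 in turn). MYD88 was called with any 1 line dropped. With no replicate block 0 members were called, and over all tested genes 4 were called higher and 3 lower.

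The departure from additive log2 changes (Combo minus CPI203 minus IRAKi plus Control) passed for 0 of 9 members, and limma called 0.00762% of all genes. Only the IRAKi arrays in it are labelled 6 h, the others 24 h, so labelled time and non-additive change cannot be told apart. For MYD88 the departure was -0.19, with a 95% interval of -0.59 to 0.21. For UNC93B1 it was 0.23 (-0.15 to 0.61) and for TLR9 0.05 (-0.80 to 0.91). The TLR9 value combined -0.90 in OCI-HBL1, -0.24 in OCI-LY3 and 1.30 in OCI-LY10. TRAF6 had the 1 member value with an unadjusted p below 0.05, at -0.51 ± 0.20 (limma adjusted p = 0.56). Of 13120 tested genes, 1085 had an unadjusted limma p below 0.05.

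The members' levels were also compared between lines. Each line has 4 arrays under 4 treatments, and limma took treatment as a term in the same fit. In OCI-LY10 against OCI-HBL1, 2 members were higher and 5 lower of 9, where 48.5% of all genes were called, 22.8% higher and 25.8% lower. In OCI-LY3 against OCI-HBL1, 2 were higher and 1 lower, where 47.2% were called, 25.1% higher and 22.2% lower. In OCI-LY3 against OCI-LY10, 4 were higher and 1 lower, where 46.6% were called, 26% higher and 20.6% lower. On the poly-A scale 0 were higher and 5 lower in the first of these, 0 and 3 in the second, and 4 and 0 in the third. Over all tested genes that scale called 1485 higher and 4660 lower, 2007 and 2926, and 3563 and 1452, in the same order.

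MAP3K7 differed between all 3 lines, with means of 10.30 in OCI-HBL1, 9.48 in OCI-LY3 and 8.91 in OCI-LY10. OCI-LY10 differed from OCI-HBL1 by -1.39 ± 0.10 (limma adjusted p = 2.7e-06), lower under 4 of 4 treatments. TAB2 was highest in OCI-LY3 (mean 9.77), then OCI-HBL1 (9.34) and OCI-LY10 (8.77). OCI-LY3 exceeded OCI-LY10 by 1.00 ± 0.12 (limma adjusted p = 8.1e-05). Its lead over OCI-HBL1, 0.43 ± 0.12 (limma adjusted p = 0.012), was lost on leaving out the CPI203 or IRAKi arrays (adjusted p = 0.056 and 0.072 in turn), on the poly-A scale and with the mean of probe sets.

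MYD88 was lowest in OCI-HBL1 (mean 8.59), and OCI-LY3 (9.19) and OCI-LY10 (9.30) did not differ past the test (-0.12 ± 0.11, limma adjusted p = 0.42). Its leads over OCI-HBL1, 0.60 ± 0.11 in OCI-LY3 and 0.71 ± 0.11 in OCI-LY10, were not called on the poly-A scale (adjusted p = 0.054 and 0.063), and the former not with the mean of probe sets (adjusted p = 0.14). TLR9 was lowest in OCI-LY10 (mean 4.78) and highest in OCI-HBL1 (6.10), a difference of -1.32 ± 0.23 (limma adjusted p = 0.0010). OCI-LY3 stood between them at 5.47 and did not differ from OCI-HBL1 past the test (limma adjusted p = 0.0501), although it was called under 6 of the 10 alternatives, the poly-A scale and median centring among them. Its lead over OCI-LY10, 0.70 ± 0.23, was lost on leaving out the Control, CPI203 or IRAKi arrays (adjusted p = 0.097, 0.12 and 0.16 in turn).

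IRAK1 was lower in OCI-LY10 (mean 8.88) than in OCI-HBL1 (9.44) and OCI-LY3 (9.40), which did not differ from each other past the test (limma adjusted p = 0.85). The difference from OCI-HBL1 was -0.55 ± 0.15 (limma adjusted p = 0.0098), lost on leaving out the CPI203 arrays (adjusted p = 0.057), and that from OCI-LY3 was lost on leaving out the Control, CPI203 or IRAKi arrays (adjusted p = 0.067, 0.071 and 0.080 in turn). UNC93B1 was highest in OCI-LY10, by 0.36 ± 0.10 over OCI-HBL1 (limma adjusted p = 0.016). That call was lost on the poly-A scale (0.06), with trend and robust estimation, and on leaving out the CPI203, IRAKi or Combo arrays (adjusted p = 0.11, 0.079 and 0.051 in turn). Its lead over OCI-LY3 was lost on the poly-A scale, with trend and robust estimation, and on leaving out the CPI203 or IRAKi arrays (adjusted p = 0.062 and 0.080 in turn). TRAF6 differed between OCI-LY10 and OCI-HBL1 by -0.41 ± 0.12 (limma adjusted p = 0.019), lost on leaving out the Control, CPI203 or Combo arrays (adjusted p = 0.066, 0.062 and 0.065 in turn). IRAK2 and IRAK3 were not called between lines, but IRAK3 was in OCI-LY3 and in OCI-LY10 against OCI-HBL1 once the Combo arrays were left out, and in the former also on the poly-A scale. IRAK2 was called between OCI-LY3 and OCI-LY10 with the mean of probe sets.

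The 3 tested genes nearest to each called member were found by the root mean square difference over 9 log2 changes, 3 treatments in 3 lines against the line's own Control. For MYD88 they were ZNF586 (0.177), UNC93B1 (0.186) and PEF1 (0.187), against a median of 0.887 over all genes. For UNC93B1 they were MYD88 (0.186), RBMXL1 (0.194) and FAM136A (0.202), against 0.883. IRAK1 was nearest to HPS1 (0.0972), FTO (0.118) and SMARCA4 (0.146), against 0.648. MAP3K7 was nearest to TRAPPC4 (0.072), RPAIN (0.0887) and MARK3 (0.0898), against 0.537, and TLR9 to TNFRSF1B (0.326), VPS52 (0.334) and UNG (0.347), against 1.22. The changes of a line share its Control array, and no test was made.

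Around the members, 84 other genes of the pathway were listed by role, of which 78 had a probe set of their own and 73 were tested. Under CPI203 7 rose and 8 fell, under Combo 15 rose and 16 fell, and under IRAKi limma called 0. The background for this and each list below is 6.92% of all tested genes higher and 6.21% lower under CPI203, and 15.4% higher and 16.7% lower under Combo. The median change of the 73 genes under Combo was -0.15, against -0.0031 over all tested genes. On the poly-A scale 4 rose and 39 fell under Combo, and 1 rose and 16 fell under CPI203. Over all tested genes that scale called 513 higher and 5644 lower under Combo, and 165 and 1595 under CPI203. Dropping OCI-LY3 left 7 risen and 9 fallen under Combo, OCI-HBL1 13 and 13, and OCI-LY10 5 and 10. Under CPI203 the numbers were 0 and 2, 3 and 5, and 1 and 2. Over all tested genes the Combo fits called 958 higher and 1114 lower, 1700 and 1720, and 1073 and 1159, in that order. The CPI203 fits called 94 and 122, 374 and 346, and 135 and 147. In Combo against CPI203, 2 of the 73 rose and 0 fell, against 1.96% of all genes higher and 2.71% lower. These were IL1R1 (1.93) and MAP3K8 (0.95), and both calls ended on dropping any 1 line. Over all tested genes, dropping OCI-LY3, OCI-HBL1 or OCI-LY10 left 0, 3 and 0 higher in that comparison and 0 lower. On the poly-A scale the MAP3K8 call was also lost (limma adjusted p = 0.096).

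Among 9 tested receptors beside TLR9, 2 fell under CPI203, and 4 fell and 1 rose under Combo. CD180, a TLR4-like receptor of B cells, changed by -2.11 ± 0.38 under CPI203 (limma adjusted p = 0.0094) and -2.60 ± 0.38 under Combo (adjusted p = 0.00097). TLR10, a receptor typical of B cells, changed by -1.66 ± 0.17 (limma adjusted p = 0.0012) and -1.95 ± 0.17 (adjusted p = 9.9e-05). The CD180 call under CPI203 ended on dropping OCI-LY3 or OCI-LY10 (adjusted p = 0.058 and 0.086 in turn), and both TLR10 calls held with any 1 line dropped. IL18R1, a chain of the IL-18 receptor, changed by -0.86 ± 0.26 under Combo (limma adjusted p = 0.029), lost on dropping OCI-HBL1, OCI-LY3 or OCI-LY10 (adjusted p = 0.055, 0.23 and 0.055 in turn). IL1RAP, the shared accessory chain of IL-1 family receptors, rose under Combo by 0.81 ± 0.14 (limma adjusted p = 0.0023), a call that ended on dropping OCI-LY10 (adjusted p = 0.052) and on the poly-A scale (0.32).

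Of 10 receptor partners and processing factors, 2 fell and 1 rose under CPI203, and 2 fell and 2 rose under Combo. CNPY3, a folding factor for Toll-like receptors, changed by -1.07 ± 0.19 under Combo (limma adjusted p = 0.0025), a call that ended on dropping OCI-LY10 (adjusted p = 0.051). The lysosomal protease gene CTSB rose by 0.95 ± 0.22 under Combo (limma adjusted p = 0.0091), a call that ended on dropping OCI-HBL1 (adjusted p = 0.056) and on the poly-A scale (0.46). Of 8 adaptors and IRAK-bound factors, 2 fell and 2 rose under Combo, and 1 rose under CPI203. SARM1, a TIR domain protein, changed by -1.09 ± 0.34 under Combo (limma adjusted p = 0.036), lost on dropping OCI-HBL1 or OCI-LY3 (adjusted p = 0.20 and 0.16 in turn). PELI1, a ubiquitin ligase that acts with IRAK kinases, rose by 0.71 ± 0.18 (limma adjusted p = 0.015), lost on dropping OCI-LY3 or OCI-LY10 (adjusted p = 0.14 and 0.073 in turn), with 0.22 on the poly-A scale, not called (adjusted p = 0.37). TICAM1, the adaptor TRIF, changed by -0.65 ± 0.13 under Combo (limma adjusted p = 0.0049), lost on dropping OCI-LY10 (adjusted p = 0.074). TOLLIP, which restrains IRAK1, rose by 0.61 ± 0.12 under CPI203 (limma adjusted p = 0.014), lost on dropping OCI-HBL1, OCI-LY3 or OCI-LY10 (adjusted p = 0.079, 0.13 and 0.088 in turn). Under Combo it rose by 0.46 ± 0.12 (limma adjusted p = 0.018), lost on dropping OCI-HBL1, OCI-LY3 or OCI-LY10 (adjusted p = 0.061, 0.083 and 0.16 in turn), and the value turned to -0.02 on the poly-A scale.

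Of 11 genes of the ubiquitin, TAK1, LUBAC and IKK steps, TAB3, a partner of TAK1 like TAB2, was the 1 called under CPI203 and under Combo. It rose by 0.70 ± 0.19 (limma adjusted p = 0.043) and 0.90 ± 0.19 (adjusted p = 0.0065), and neither call was kept on the poly-A scale. The first was lost on dropping OCI-LY3 or OCI-LY10 (adjusted p = 0.26 and 0.29 in turn), the second on dropping OCI-LY3 or OCI-LY10 (adjusted p = 0.12 and 0.087 in turn). Below TAK1, 4 of 6 MAP kinase genes rose and 1 fell under Combo, and 3 rose under CPI203, where 15.4% and 6.92% of all genes rose. MAPK8, the stress kinase JNK1, rose by 1.51 ± 0.15 under Combo (limma adjusted p = 0.00019), and MAP2K3, an activator of p38, by 1.36 ± 0.19 (adjusted p = 0.00079). Both calls held with any 1 line dropped and on the poly-A scale (1.03 and 0.88). MAP3K8, a kinase upstream of ERK, rose by 1.23 ± 0.20 under Combo (limma adjusted p = 0.0016), called with any 1 line dropped. MAPK9 rose by 0.46 under Combo, and its value turned to -0.03 on the poly-A scale. That call was lost on dropping OCI-LY3 or OCI-LY10 (limma adjusted p = 0.18 and 0.18 in turn). MAP2K6, like MAP2K3 an activator of p38, fell, with a change of -0.98 ± 0.29 (limma adjusted p = 0.026), lost on dropping OCI-HBL1 or OCI-LY3 (adjusted p = 0.11 and 0.20 in turn).

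Of 8 genes of the interferon regulatory factor arm, 3 fell and 1 rose under Combo, and 2 fell under CPI203. IRF5, which acts with MYD88, changed by -1.35 ± 0.18 under CPI203 (limma adjusted p = 0.0029) and -1.32 ± 0.18 under Combo (adjusted p = 0.00069), and both calls held with any 1 line dropped. IRF7, the factor that drives type I interferon genes, rose by 0.81 ± 0.27 under Combo (limma adjusted p = 0.048), lost on dropping OCI-LY3 or OCI-LY10 (adjusted p = 0.23 and 0.18 in turn), with 0.32 on the poly-A scale, not called (adjusted p = 0.32). IKBKE, an IKK-related kinase, changed by -1.50 ± 0.24 under Combo (limma adjusted p = 0.0016). Of 3 tested B cell kinases linked to MYD88, SYK and BTK fell under Combo, by changes of -1.08 ± 0.15 (limma adjusted p = 0.00070) and -0.78 ± 0.16 (adjusted p = 0.0054), the latter lost on dropping OCI-LY3 (adjusted p = 0.077). Under CPI203 only SYK of these fell, with a change of -0.57. That call ended on dropping OCI-HBL1, OCI-LY3 or OCI-LY10 (limma adjusted p = 0.11, 0.19 and 0.13 in turn).

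Of 11 negative regulators, 3 rose and 1 fell under Combo, and 1 rose under CPI203. OTUD7B, a deubiquitinase, rose by 1.07 ± 0.21 under Combo (limma adjusted p = 0.0036), and by 0.59 on the poly-A scale, not called there (adjusted p = 0.055). NFKBIA, the NF-kB inhibitor and target, rose by 0.83 ± 0.21 (limma adjusted p = 0.013), lost on the poly-A scale and on dropping OCI-LY3 or OCI-LY10 (adjusted p = 0.11 and 0.13 in turn). TNIP1, a partner of A20, changed by -0.72 ± 0.14 (limma adjusted p = 0.0037), lost on dropping OCI-LY10 (adjusted p = 0.067). Of 7 output cytokines and targets, the chemokine gene CCL22 fell and CCL3 rose under Combo. CCL22 changed by -1.40 ± 0.33 (limma adjusted p = 0.0096), lost on dropping OCI-LY3 or OCI-LY10 (adjusted p = 0.051 and 0.085 in turn). CCL3 changed by 2.26 ± 0.63 (limma adjusted p = 0.022), with 4.02 in OCI-HBL1, 0.15 in OCI-LY3 and 2.62 in OCI-LY10, and its call was lost on dropping OCI-HBL1 or OCI-LY10 (adjusted p = 0.15 and 0.12 in turn). Under CPI203 only CCL22 of these 7 was called, with a change of -1.49. That call ended on dropping OCI-LY3 or OCI-LY10 (limma adjusted p = 0.068 and 0.15 in turn).

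**Figure D4:**
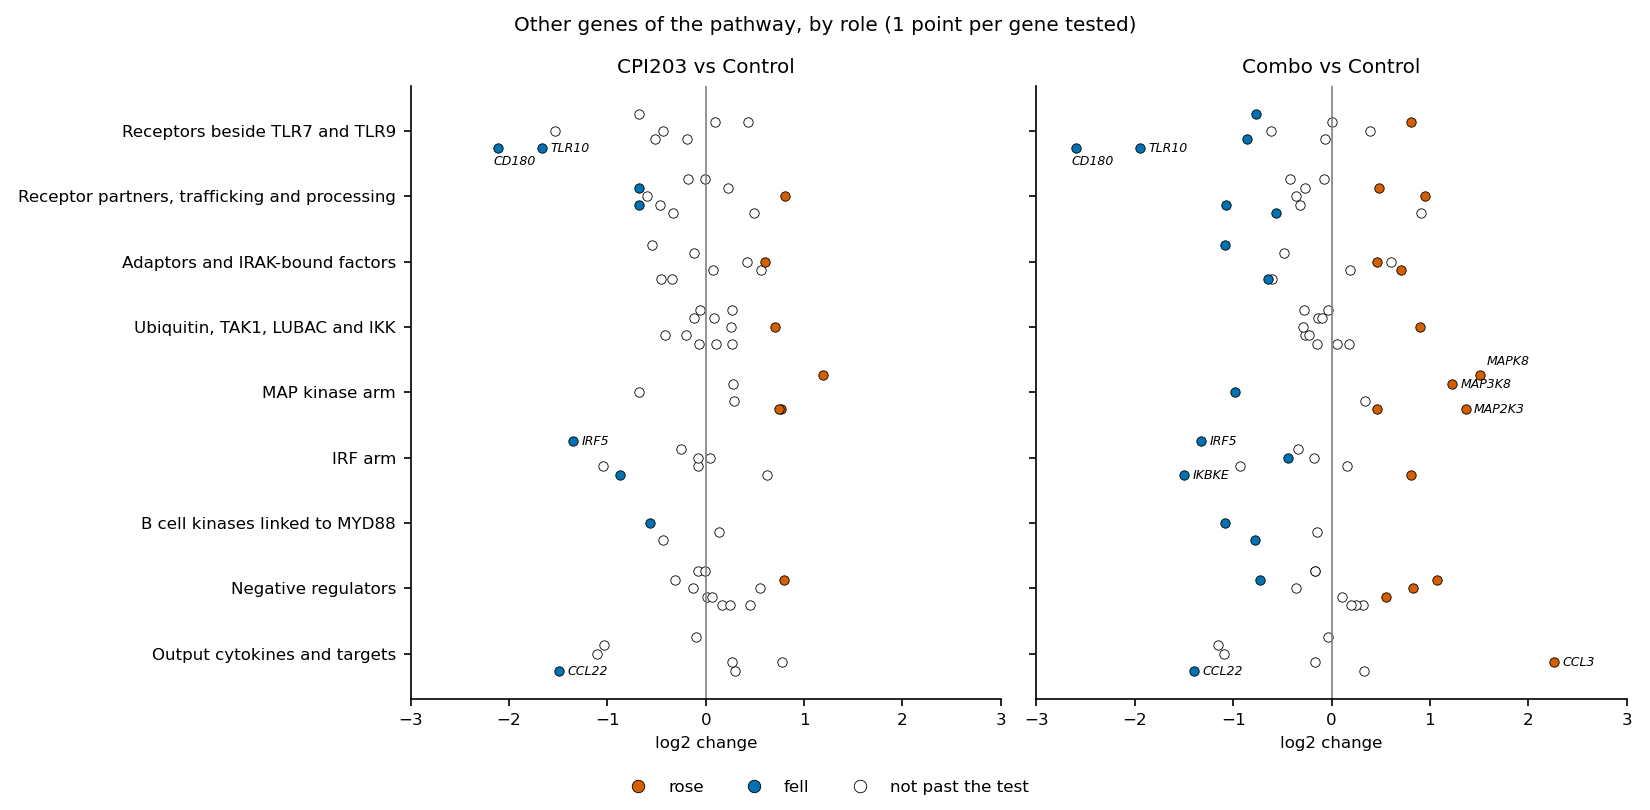
Log2 change against Control (horizontal axis) of the 73 tested pathway genes, 1 point each, in rows by role, under CPI203 and Combo. Orange points rose, blue points fell and white points did not pass the test. Under Combo 15 points are orange and 16 blue, and among these CD180 lies at -2.60 and CCL3 at 2.26.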

How the data were processed

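The deposited files hold log2 values per probe set, which the authors summarised by RMA with Affymetrix Expression Console 1.1, per the submitters' processing notes, from 150 ng of total RNA per array. RMA corrects background and quantile-normalizes arrays, and can hide a shift shared by most genes. For the probe library and genome build, nothing is stated in these sources. Symbols came from the array's annotation, updated by gene ID (99.821% of 45253 one-gene probe sets matched); other probe sets were dropped. A gene took its probe set with the highest mean and was tested if above 4.20 on 3 or more arrays, which left 13120 of 18239 genes.

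All 12 arrays were fitted with limma 3.58.1 in R 4.3.3, with treatment and cell line as terms. Tests were two-sided, adjusted by Benjamini-Hochberg over all tested genes and called below 0.05. The replicate number is the cell line, so it pairs the samples, and deviations of same-line arrays from the treatment means correlated at 0.819 to 0.907 across genes. The number of arrays limits the precision. The fit was tested on simulated data with equal changes planted in every line and independent noise. Such data follow the fitted model, so they could not test responses that differ between lines, or technical replication.

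The members and lists were chosen with earlier results of these data known. Named were all members, called pathway genes, largest changes first (at most 4 per list and comparison), and the 3 genes nearest each called member. Alternatives were averaging a gene's probe sets, each other probe set, no filter, a filter at the 60th percentile (5.70), median centring, poly-A scaling (24 spike-in probe sets), trend and robust estimation, no replicate block, only the 2 groups compared, and leaving out each line, each treatment or the OCI-LY10 IRAKi array.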

Additional observations from a re-analysis of the deposited data

Results flagged for a closer look

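IRAK3 under Combo had values of opposite sign in single lines, 1.81 in OCI-LY10 and -0.81 in OCI-HBL1 (log2, 1 array against 1 array each). Against IRAKi the Combo values were 1.29 and -0.72 in the same lines. For TLR9 the departure from additive changes was 1.30 in OCI-LY10, -0.90 in OCI-HBL1 and -0.24 in OCI-LY3, each from 4 arrays. Of these the IRAKi array was labelled 6 h and the others 24 h. Only values of at least 0.5 in each direction, over 6 treatment comparisons, were taken up. The differences between the lines were not tested. For IRAK3 both lines had arrays below the filter level of 4.20, so the sizes are uncertain.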

How the results depend on the processing

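Of 322 repeats of single member calls under an alternative, 253 kept the call, 69 kept the direction but not the call, and 0 changed direction. No filter, the 60th percentile filter, trend and robust estimation, no replicate block and fitting only the 2 groups leave the change itself as it was. So does leaving out the OCI-LY10 IRAKi array for CPI203 and Combo against Control, and averaging probe sets for genes with only 1. Direction could not turn under these, so the 0 says little about them. Leaving out 1 line or the OCI-LY10 IRAKi array gave 0 to 4 members called for CPI203 (5 with all arrays), 2 to 6 for Combo (5) and 1 to 3 for Combo against IRAKi (3). Over all tested genes those fits called 94 to 828 higher and 122 to 752 lower for CPI203 (908 and 815 with all arrays). For Combo they called 958 to 2011 and 1114 to 2160 (2023 and 2191). For Combo against IRAKi they called 243 to 787 and 283 to 925 (1077 and 1379). With no replicate block the counts were 0, 1 and 0, and those of the other treatment comparisons stayed at 0. Over all tested genes that model called 2 higher and 2 lower for CPI203, 255 and 210 for Combo, and 4 and 3 for Combo against IRAKi. For Combo against CPI203 it called 2 and 0, and for IRAKi and the departure from additive changes 0. Fitting only the 2 groups compared gave 3 for Combo and 1 for Combo against IRAKi. Over all tested genes those fits called 1034 higher and 1129 lower, and 447 and 530, in that order. Combo against IRAKi gave 5 with the mean of probe sets and 6 with trend and robust estimation. Over all tested genes the first called 1272 higher and 1255 lower of 11840, and the second 1296 and 1554 of 13120. Combo against CPI203 gave 1, MYD88, with the 60th percentile filter and 1, again MYD88, with trend and robust estimation. Over all tested genes these called 290 higher and 523 lower of 9210, and 385 and 569 of 13120, against 257 and 355 in the main fit. Leaving out a treatment gave 4 to 6 members for OCI-LY10 against OCI-HBL1 (7), 2 to 5 for OCI-LY3 against OCI-HBL1 (3) and 2 to 5 for OCI-LY3 against OCI-LY10 (5). Over all tested genes the first called 2404 to 2690 higher and 2784 to 3198 lower (2987 and 3381 with all arrays). The second called 2647 to 3001 and 2355 to 2676 (3287 and 2908). The third called 2719 to 3249 and 2069 to 2453 (3417 and 2697). The causes were not tested, beyond the fewer arrays some fits had. The IRAKi count was 0 under each alternative run. Over all tested genes 0 were called for IRAKi with no replicate block and with only the 2 groups. The same held with any 1 line or the OCI-LY10 IRAKi array left out. A count of 0 members in those fits therefore says nothing about the members. Of the other alternatives, trend and robust estimation called the most genes, 136 higher and 84 lower. The 60th percentile filter left IRAK2, IRAK3 and UNC93B1 untested. IRAK2, IRAK3 and TLR7 lie near the filter level, where changes may be understated.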
